A study of Felis catus with 6 samples.

Results

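The genes described here encode proteases, protease inhibitors and close relatives of both. They were measured by RNA sequencing of inflamed and healthy oral mucosa from cats with feline chronic gingivostomatitis (FCGS), a chronic inflammatory disease of the oral mucosa. Members were the genes whose symbol in the study's list of genes at least 2-fold different begins with a protease or inhibitor stem (MMP, TIMP, ADAM, SERPIN, CTS, KLK, PRSS, TMPRSS, CAPN, CASP, CST, SPINK, SPINT, WFDC, CPA, CPE, CPM, CPXM or DPP), without SERPING1. These were 57 genes of the 1981 list entries used here and of the 21529 identifiers in the files. No member had the stem SPINK or SPINT. CSTF2 entered by its first letters only, since it encodes a subunit of the RNA cleavage stimulation factor. Each list entry holds a gene's values in every library, and each matched exactly 1 Ensembl identifier in the deposited files.

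Tissue proteases fall into families by the chemistry of the active site. Matrix metalloproteinases, ADAMs and ADAMTS proteases use zinc and cut collagens, proteoglycans and membrane proteins outside the cell. Cysteine cathepsins work mainly in lysosomes, serine proteases at the cell surface and in plasma, and calpains and caspases in the cytosol. Each family has inhibitors, among them TIMPs for metalloproteinases, cystatins for cathepsins and serpins for many serine proteases. In oral mucosa, fibroblasts, leukocytes and epithelial cells each make their own set, and the balance of proteases and inhibitors has long been studied in gum disease.

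The 3 cats, named Bart, Jerome and Sadie in the labels, each gave 1 biopsy of an FCGS lesion and 1 of adjacent healthy mucosa, so the study had 6 libraries, 3 per tissue. The healthy biopsies thus came from diseased animals, and cats without FCGS were not sequenced. The study describes its cats as edentulous, negative for FIV and FeLV, treated with buprenorphine and free of immunosuppressive drugs and antibiotics, and gives no age for the sequenced animals. The labels call the tissue gingival, while the methods place the biopsies beside the palatoglossal folds. Values are FPKM, fragments per kilobase of transcript scaled to library size, so levels of different genes can be compared. The files give no read totals for single libraries, and the study's methods state only a nominal depth. FPKM summed to 1382122 to 1903773 per library. As a check of the tissue, KRT4, the keratin of mature oral epithelium, was listed at 0 in the healthy libraries of Jerome and Sadie. It reached 2089 FPKM in that of Bart. Lesions of Bart, Jerome and Sadie held 8.99, 2534 and 569 FPKM of KRT4, so the cats differed in direction. TMPRSS13, an epithelial member described below, measured 40.5 and 63.8 FPKM in the healthy libraries of Jerome and Sadie. As a member, TMPRSS13 was chosen for a difference between the tissues, so nothing about epithelial content is read from it. The part of epithelial content in the KRT4 values was not tested.

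The difference between the tissues chose the members, so lesion values are set beside healthy values as a description, and calls between the tissues are given only as counts beside those over all identifiers. Log2 differences are means over the 3 cats of lesion minus healthy, after values below 1 FPKM were raised to 1. Of the 57 members, 44 were higher and 13 lower in lesions, with a median log2 difference of 1.48. The median of the 53 members that passed the filter on low values (at least 1 FPKM in at least 3 libraries) was 1.60, against -0.07 over all 13327 identifiers that passed it. MMP12, CASP14, SERPINB12 and SERPINB13 did not pass. The members closest to the 2-fold limit were CTSW (log2 difference 1.00), MMP14 (1.01) and CSTF2 (-1.02). Genes just outside the limit carry no symbol, and neither do genes more than 5.20-fold lower, so members with the strongest falls are not described.

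Most members moved the same way in every animal, though a smaller share than among all tested identifiers at least 2-fold different. Of the 57, 37 were higher and 8 lower in the lesion of every cat, and 30 differed at least 2-fold in every cat. Among all tested identifiers, 63.2% had the same direction in every cat (91.5% of those at least 2-fold different) and 15.6% reached 2-fold in every cat. The latter were 2081 identifiers, all of them among the 3897 at least 2-fold different, the kind from which the members were chosen. In 28 members (22 higher, 6 lower) the 3 lesion libraries did not overlap the 3 healthy ones, which held for 38.6% of tested identifiers (16.7% higher, 21.9% lower) and for 73.3% of those at least 2-fold different. Without Bart it held for 52 members and 69.2% of identifiers. Across all tested identifiers, limma without the cat in the model called 11.9% at an adjusted p under 0.05 (5.31% higher, 6.61% lower). Among the members it called 11, of which TIMP1, ADAM19, ADAMTS14, CTSZ, CTSS, CTSK, CTSH, CTSB and CPM were higher and CAPN1 and CSTF2 lower in lesions. With the cat as a block, 34 members were called (28 higher, 6 lower), against 23.2% of identifiers (12.2% higher, 11.1% lower). Leaving out 1 library of Sadie gave 0 calls, against 0.0675% of identifiers (healthy left out) and 0.00750% (lesion left out). Without the healthy and the lesion library of Jerome, limma called 1 and 4 members, against 0.990% and 4.91% of identifiers. Without those of Bart it called 9 and 13, against 6.74% and 10.8%. Without both libraries of Jerome or of Sadie limma called 0 members and 0 identifiers (18 and 21 members at an unadjusted p under 0.05). Without Bart it called 24 members, against 16.0% of identifiers. Since the members were chosen on this contrast, nothing is read from these counts.

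**Figure D1:**
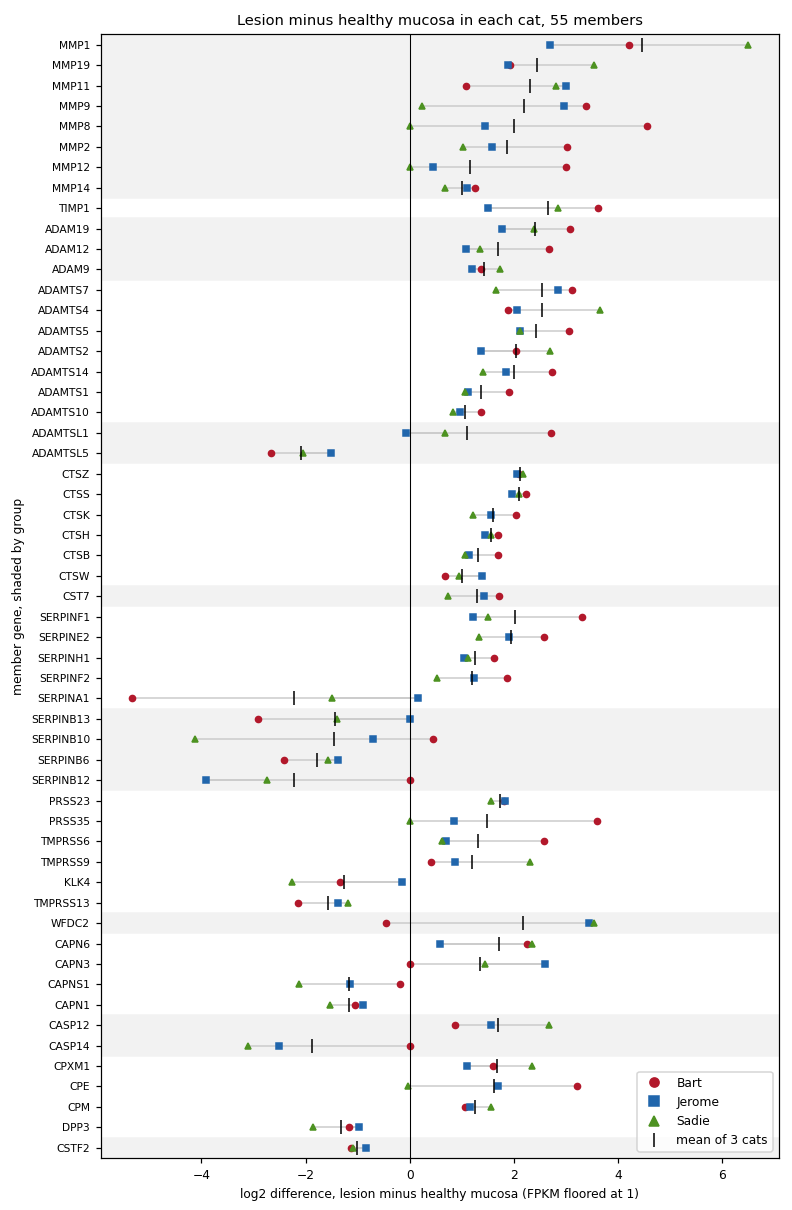
Log2 difference of lesion and healthy mucosa (horizontal axis, FPKM floored at 1) for 55 of the members (vertical axis, shaded by group), with 1 point per cat and a black tick for the mean. The cathepsins lie closer together in the 3 cats than MMP1, MMP8 and MMP9, which spread widely, and SERPINA1 and SERPINB10 cross 0.

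All 8 matrix metalloproteinases of the list were higher in lesions, with log2 differences of 1.01 to 4.46. MMP1 (ENSFCAG00000015791), the interstitial collagenase that makes the first cut in fibrillar collagen, measured 1314 FPKM in the lesion of Bart, 109 in that of Jerome and 90.1 in that of Sadie. Its healthy values were 71.4, 16.9 and 0.628 FPKM in the same order. Every lesion thus lay above every healthy library, and the mean log2 difference of 4.46 was the largest of the 57 members. In single cats the difference was 4.20 (Bart), 2.69 (Jerome) and 6.49 (Sadie), the last set by a healthy value below 1 FPKM.

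MMP19, a metalloproteinase that cuts basement membrane proteins, measured 171, 79.9 and 90.7 FPKM in the lesions of Bart, Jerome and Sadie and 44.9, 21.7 and 7.80 FPKM in their healthy mucosa (log2 difference 2.45). MMP11, the stromelysin of stromal cells, measured 102, 29.4 and 36.5 FPKM in lesions against 48.0, 3.66 and 5.20 FPKM. The tissues did not overlap for MMP19, but healthy mucosa of Bart held more MMP11 than the lesions of the other cats. MMP9, gelatinase B of neutrophils and macrophages, reached 24.9 FPKM in the lesion of Bart and 7.70 in that of Jerome, but only 1.18 FPKM in that of Sadie. Healthy mucosa held 2.39, 0.160 and 0.864 FPKM of MMP9, so the lesion of Sadie lay below the healthy library of Bart.

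MMP2, gelatinase A of fibroblasts, was the most abundant metalloproteinase of the list in all 6 libraries, and the tissues did not overlap. It measured 1522, 487 and 455 FPKM in lesions and 188, 164 and 225 FPKM in healthy mucosa. MMP14, the membrane enzyme that activates the MMP2 precursor, measured 391, 162 and 148 FPKM against 164, 76.1 and 93.0 FPKM. MMP8, the collagenase of neutrophils, stood out in a single library, with 88.8 FPKM in the lesion of Bart against 2.74 and 0.946 FPKM in the other lesions and 0.115 to 3.78 FPKM in healthy mucosa. MMP12, the elastase of macrophages, exceeded 1 FPKM only in the lesions of Bart (8.01) and Jerome (1.37).

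TIMP1 (ENSFCAG00000008190), the secreted inhibitor of most of these enzymes, was the most abundant member in all 3 lesions, at 1839.7, 813 and 784 FPKM. Healthy mucosa held 151, 288 and 108 FPKM, so the tissues did not overlap (log2 difference 2.65). Summed FPKM of the 8 metalloproteinases stood at 1.97, 1.08 and 1.05 times that of TIMP1 in the lesions of Bart, Jerome and Sadie, and at 3.47, 0.984 and 3.07 times in their healthy mucosa. This ratio was lower in the lesion in Bart and Sadie and close to equal in both tissues of Jerome. Both of its sides hold only genes chosen for a 2-fold difference, so it is not the balance of all metalloproteinases and TIMPs. MMP2 made up 42.0% to 55.4% of the metalloproteinase sum in lesions and 35.9% to 67.7% in healthy mucosa. MMP1 made up 36.3%, 12.4% and 10.9% of it in lesions and 13.7%, 5.95% and 0.189% in healthy mucosa, so its share was larger in the lesion of each cat.

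**Figure D2:**
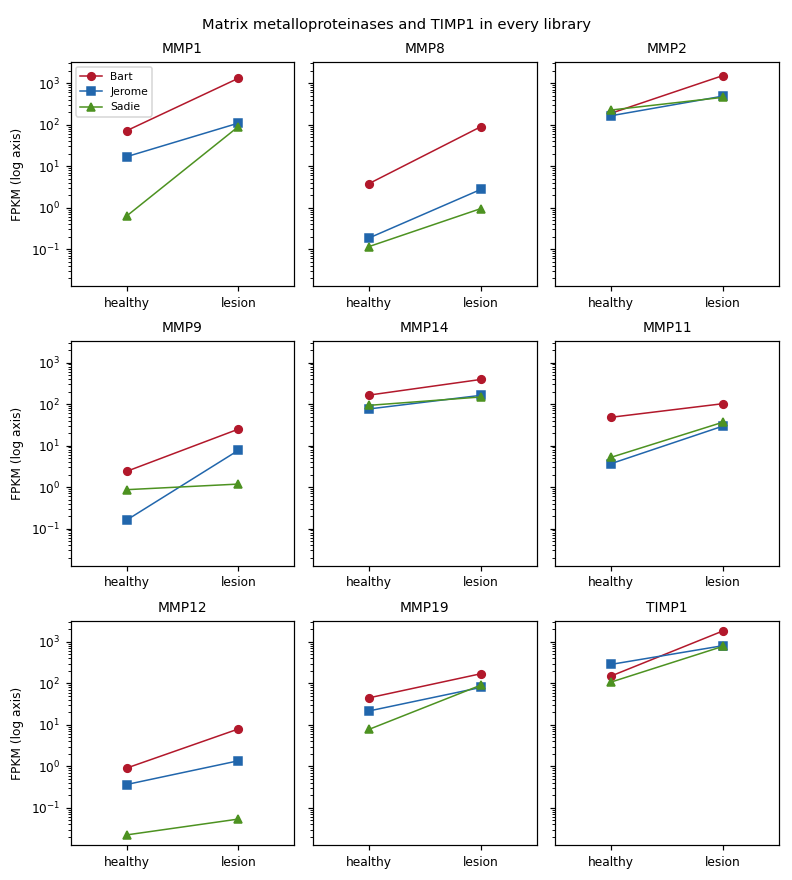
FPKM (vertical axis, log scale) of the 8 matrix metalloproteinases and TIMP1 in healthy mucosa and lesion, with 1 line per cat. Bart (red circles) has the highest lesion value in all 9 panels, and its MMP1 reaches 1314 FPKM against 109 and 90.1 FPKM in the other lesions.

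The 3 ADAM proteases, membrane enzymes that shed growth factors and receptors, were higher in the lesion of every cat. ADAM19 measured 32.6, 17.0 and 16.9 FPKM in the lesions of Bart, Jerome and Sadie and 3.88, 5.01 and 3.22 FPKM in healthy mucosa (log2 difference 2.41). ADAM12 measured 27.1, 2.12 and 2.53 FPKM in lesions against 4.23, 0.706 and 0.171 FPKM. ADAM9 measured 53.7, 7.11 and 6.56 FPKM against 20.8, 3.08 and 1.98 FPKM. ADAM19 separated the tissues, whereas for ADAM9 and ADAM12 the healthy library of Bart lay above the lesions of both other cats.

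The 7 ADAMTS proteases were likewise higher in the lesion of every cat, with log2 differences of 1.05 to 2.54, and each had its highest value in the lesion of Bart. Among those that cut the proteoglycans aggrecan and versican, ADAMTS4 measured 373, 93.9 and 62.0 FPKM in lesions and 102, 22.5 and 4.94 FPKM in healthy mucosa. ADAMTS5 measured 35.1, 4.32 and 4.33 FPKM against 4.24, 0.681 and 0.803 FPKM. ADAMTS1 measured 255, 43.4 and 32.7 FPKM against 68.2, 20.1 and 15.7 FPKM. Only ADAMTS5 of these 3 separated the tissues, and by a narrow margin, between 4.24 and 4.32 FPKM.

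ADAMTS2, which removes the amino-terminal propeptide of fibrillar procollagens, measured 151, 49.3 and 49.1 FPKM in lesions and 36.9, 19.1 and 7.60 FPKM in healthy mucosa. ADAMTS7, an enzyme that cuts cartilage oligomeric matrix protein, measured 45.3, 12.4 and 10.9 FPKM against 5.23, 1.73 and 3.46 FPKM. Both separated the tissues, as did ADAMTS14, a second procollagen propeptidase, and ADAMTS10, a binding partner of fibrillin, at log2 differences of 1.99 and 1.05.

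Both ADAMTS-like proteins lack the protease domain, and they differed in direction. ADAMTSL5 measured 5.72, 22.7 and 21.5 FPKM in the lesions of Bart, Jerome and Sadie and 36.1, 64.4 and 89.7 FPKM in healthy mucosa, lower in every lesion than in any healthy library (log2 difference -2.08). ADAMTSL1 measured 11, 2.09 and 1.93 FPKM in lesions against 1.69, 2.19 and 1.21 FPKM. Its difference rested on Bart, since Jerome showed a log2 difference of -0.07 and Sadie one of 0.67.

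The 6 cathepsins were higher in the lesion of every cat, and CTSZ, CTSS and CTSH at similar size in each. Others varied more, with log2 differences in Bart, Jerome and Sadie of 2.04, 1.55 and 1.22 for CTSK and 0.67, 1.39 and 0.95 for CTSW. CTSZ (ENSFCAG00000000845), a lysosomal carboxypeptidase of myeloid cells, measured 153, 266 and 221 FPKM in the lesions of Bart, Jerome and Sadie and 35.8, 64.0 and 49.2 FPKM in healthy mucosa. The log2 difference was 2.10, 2.06 and 2.17 in the 3 cats, an SD of 0.06, the smallest among the members. CTSS (ENSFCAG00000003642), which trims the invariant chain for antigen presentation on MHC class II, measured 309, 589 and 415 FPKM against 66.4, 150.3 and 97.4 FPKM. CTSH, a lysosomal aminopeptidase, measured 381, 385 and 316 FPKM against 118, 142 and 108 FPKM.

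CTSK, the collagen-degrading cathepsin of osteoclasts and fibroblasts, measured 291, 273 and 255 FPKM in lesions and 70.8, 93.6 and 109.9 FPKM in healthy mucosa. CTSB, the most abundant cathepsin in 6 of 6 libraries, measured 879.8, 691 and 554 FPKM against 273, 313 and 265 FPKM. All of these 5 cathepsins separated the tissues. CTSW, a cathepsin of natural killer cells and CD8+ T cells, did not: it measured 33.7, 86.5 and 111 FPKM in lesions against 21.1, 33.1 and 57.8 FPKM, and the healthy library of Sadie lay above the lesion of Bart. The SD of the log2 difference among cats had a median of 0.24 over the 6 cathepsins and of 1.34 over the 8 matrix metalloproteinases, against 0.66 over all tested identifiers at least 2-fold higher in lesions. MMP1, MMP8, MMP9 and MMP12, which had values below 1 FPKM, had SDs of 1.62 to 2.33. MMP2, MMP11, MMP14 and MMP19, above 1 FPKM in every library, had SDs of 0.30 to 1.06. MMP12, which did not pass the filter, is in the median of the metalloproteinases. This contrast of the families is a description without a test, and the part of low values in it was not tested.

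CST7, cystatin F, an inhibitor of cathepsins in cytotoxic lymphocytes and other leukocytes, shared with CTSW the low values of Bart in both tissues. It measured 6.05, 21.5 and 15.5 FPKM in the lesions of Bart, Jerome and Sadie and 1.84, 7.99 and 9.34 FPKM in healthy mucosa. Higher in the lesion of each cat, it still overlapped between the tissues because both values of Bart were low.

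Among the serpins outside clade B, 5 of 6 were higher in lesions and SERPINA1 was lower. SERPINE2, an inhibitor of thrombin and urokinase at the cell surface, measured 398, 54.8 and 53.3 FPKM in the lesions of Bart, Jerome and Sadie and 66.7, 14.6 and 21.1 FPKM in healthy mucosa (log2 difference 1.94). The healthy library of Bart held more SERPINE2 than the lesions of Jerome and Sadie. PLAU and PLAUR, urokinase and its receptor, are no members by symbol and were added after their values had been seen. PLAU measured 383, 80.9 and 41.5 FPKM in lesions and 66.5, 10.3 and 6.69 FPKM in healthy mucosa, and PLAUR 214, 67.8 and 27.1 FPKM against 42.0, 9.75 and 5.94 FPKM. PLAU and PLAUR shared 1 order of cats in both tissues, Bart before Jerome before Sadie.

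SERPINF1, pigment epithelium-derived factor, a serpin that inhibits no protease, measured 705, 186 and 242 FPKM in lesions and 71.1, 79.5 and 85.5 FPKM in healthy mucosa, with no overlap. SERPINH1, the collagen chaperone HSP47, and SERPINF2, the inhibitor of plasmin, also separated the tissues, at log2 differences of 1.26 and 1.20. SERPINA1, the circulating inhibitor of neutrophil elastase, measured 0.751, 5.65 and 1.36 FPKM in lesions against 40.4, 5.05 and 3.86 FPKM. Its mean log2 difference of -2.23 came mainly from Bart (-5.34), and Jerome had a difference of 0.16.

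The 4 clade B serpins, which act inside cells and in squamous epithelium, were lower in lesions. SERPINB6, an inhibitor of cathepsin G, measured 21.1, 114 and 76.5 FPKM in the lesions of Bart, Jerome and Sadie and 112, 295 and 227 FPKM in healthy mucosa. It was lower in every lesion than in the healthy mucosa of the same cat, although the lesion of Jerome reached the healthy level of Bart. SERPINB12 measured 15.2 FPKM in healthy mucosa of Jerome, 6.69 FPKM in that of Sadie and under 1 FPKM in the other 4 libraries, with 2 lesions listed at 0. SERPINB13, an inhibitor of cathepsins in squamous epithelium, exceeded 1 FPKM only in the healthy mucosa of Bart (7.57) and Sadie (2.63). SERPINB10, a serpin of blood-forming cells, differed in direction among cats, with 58.5, 14.5 and 1.86 FPKM in lesions and 42.8, 23.7 and 32.2 FPKM in healthy mucosa.

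CASP14, the caspase of cornifying epithelium, exceeded 1 FPKM only in the healthy mucosa of Jerome (5.72) and Sadie (8.56), the same 2 libraries as SERPINB12. TMPRSS13, a membrane serine protease of epithelia, measured 8.69, 15.5 and 27.9 FPKM in lesions against 38.4, 40.5 and 63.8 FPKM, lower in every lesion than in any healthy library. KLK4, a kallikrein known from enamel, measured 3.52 FPKM or less in lesions and 1.95 to 8.96 FPKM in healthy mucosa, with overlap. Of 14 epithelial markers, 3 had a symbol (KRT4, KRT10 and TGM5), and their summed level was 9.54, 2536 and 571 FPKM in lesions and 2102, 5.25 and 8.84 FPKM in healthy mucosa. KRT4 made up nearly all of it, save in the healthy mucosa of Jerome and Sadie, where KRT4 was listed at 0. TGM5, the transglutaminase of cornifying cells, measured 0.0813 to 0.556 FPKM in lesions and 2.86 to 7.50 FPKM in healthy mucosa. The part of epithelial content in the lower serpins was not tested, and in bulk tissue fewer cells of a type and less RNA per cell cannot be told apart.

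The other serine proteases were higher in lesions. PRSS23, a secreted protease, measured 515, 140.5 and 94.6 FPKM in the lesions of Bart, Jerome and Sadie and 146, 39.5 and 32.1 FPKM in healthy mucosa. Its log2 difference was alike in the 3 cats (1.81, 1.83 and 1.56), yet the tissues overlapped because healthy mucosa of Bart lay above both other lesions. PRSS35, its close relative, reached 14.3 FPKM in the lesion of Bart and 1.80 FPKM or less in the other lesions, and was listed at 0 in the healthy mucosa of Sadie. TMPRSS6, the membrane protease that restrains hepcidin, measured 7.76, 3.80 and 2.91 FPKM against 1.30, 2.36 and 1.90 FPKM.

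WFDC2, a secreted protein with the fold of whey acidic protease inhibitors, ran against the order of most members. It measured 1.01, 13.2 and 47.1 FPKM in the lesions of Bart, Jerome and Sadie and 1.39, 1.22 and 4.05 FPKM in healthy mucosa. TMPRSS9 had a similar order, from 2.28 FPKM in the lesion of Bart to 18.2 FPKM in that of Sadie. Of 11 gland and duct markers, 2 had a symbol, KRT7 and KRT19, and none of these was listed at 0. Their sum was 0.181, 79.7 and 176 FPKM in lesions and 4.83, 5.52 and 15.3 FPKM in healthy mucosa, with the highest value in the same library as WFDC2. Whether gland or duct content had a part in this was not tested.

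The calpains, calcium-dependent proteases of the cytosol, differed by subunit. CAPN1, the catalytic subunit of the ubiquitous calpain, measured 89.1, 137 and 97.8 FPKM in lesions and 185, 255 and 282 FPKM in healthy mucosa, without overlap (log2 difference -1.16). CAPNS1, its regulatory subunit, measured 211, 419.6 and 281 FPKM against 240.3, 934 and 1231 FPKM. The mean log2 difference was again -1.16, but Bart contributed -0.19 and Sadie -2.13. CAPN1 stood at 0.769 times CAPNS1 in the healthy mucosa of Bart and at 0.229 to 0.422 times in the other 5 libraries.

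CAPN6, a calpain without the catalytic cysteine, measured 4.76, 2.51 and 7.70 FPKM in lesions against 0.292, 1.69 and 1.51 FPKM. CAPN3, the skeletal muscle calpain, reached 6.04 FPKM in the lesion of Jerome, 4.82 in that of Sadie and 1.78 in healthy mucosa of Sadie, and at most 0.0641 FPKM in the other 3 libraries. Of 18 skeletal muscle markers, 14 had a symbol, and their sum was 5039 and 4202 FPKM in those lesions, 2060.5 FPKM in that healthy library and 8.25 to 25.9 FPKM in the other 3. No muscle marker was listed at 0. The libraries high in CAPN3 were those high in muscle transcripts, and the part of muscle content was not tested.

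CASP12, a caspase of the inflammatory group, measured 10.9, 15.1 and 11.4 FPKM in the lesions of Bart, Jerome and Sadie and 6.00, 5.13 and 1.77 FPKM in healthy mucosa. The tissues did not overlap.

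The carboxypeptidases were higher in lesions and the dipeptidyl peptidase DPP3 was lower. CPXM1, a secreted relative of carboxypeptidases, measured 34.4, 9.36 and 11.4 FPKM in lesions and 11.4, 4.40 and 2.24 FPKM in healthy mucosa. CPE, which trims peptide hormone precursors, measured 98.3, 21.6 and 17.4 FPKM against 10.7, 6.62 and 17.9 FPKM, so Sadie showed no difference (-0.04 on the log2 scale). CPM, a membrane-bound carboxypeptidase, was low but separated the tissues, at 6.02 to 7.39 FPKM in lesions and 2.05 to 3.54 FPKM in healthy mucosa.

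DPP3, a cytosolic peptidase, measured 15.9, 33.3 and 17.7 FPKM in lesions and 35.7, 65.4 and 63.8 FPKM in healthy mucosa, lower in every lesion. CSTF2, the member that is no protease, measured 3.57, 3.76 and 3.00 FPKM against 7.79, 6.78 and 6.41 FPKM.

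The values above place Bart apart from the other cats for many members. Each cat gave 1 lesion and 1 healthy library, so a cat's mean over both tissues does not enter the difference between the tissues that chose the members. limma's F test for a difference among the 3 cats, with the tissue in the model and adjusted over all tested identifiers, called 0 of the 53 tested members and 0.00750% of identifiers. The smallest adjusted p among the members was 0.14. At an unadjusted p under 0.05 it held 25 of the 53 (47.2%), against 20.7% of all tested identifiers and 29.0% of those at least 2-fold different. The choice by 2-fold difference thus bears on this comparison too. No single member can therefore be said to differ among the cats after correction.

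Among these 25 members, 16 were higher in Bart than in both other cats and 9 were lower, where 11.2% and 8.55% of all tested identifiers were past the same p in each direction. Among those higher in Bart were 4 metalloproteinases (MMP1, MMP8, MMP11, MMP14), 5 ADAMTS proteases, ADAM9, ADAM12, SERPINE2, SERPINH1, PRSS23 and CPXM1. ADAM9 had the smallest p (unadjusted p = 0.00029, adjusted p = 0.14, limma), with a mean of Bart 3.02 higher on the log2 scale than that of the other 2 cats. PRSS23 came next, with a mean of Bart 2.10 higher (unadjusted p = 0.00032, adjusted p = 0.14, limma). Among those lower in Bart were CTSS, CTSZ, CTSW, CST7, SERPINB6, ADAMTSL5, TMPRSS9 and TMPRSS13, with differences of -0.66 (CTSZ) to -1.91 (CST7). Without Bart, the comparison of Jerome with Sadie held 4 of the 53 at an unadjusted p under 0.05, against 6.69% of identifiers.

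Counted by library, 33 of the 44 members higher in lesions had their highest value in the lesion of Bart, as did 53.4% of all tested identifiers at least 2-fold higher and 24.0% of all tested ones. All 18 metalloproteinases, ADAM and ADAMTS proteases were among them. The mean of Bart over both tissues lay above those of both other cats in 30 of the 44, against 46.3% of the identifiers at least 2-fold higher and 39.9% of all tested ones. The 57 members together made up 0.836% of all FPKM in the lesion of Bart, 0.321% and 0.295% in those of Jerome and Sadie and 0.179% to 0.197% in healthy mucosa. Since 44 of the 57 were chosen as higher in lesions, a larger share in lesions than in healthy mucosa follows from the choice.

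**Figure D3:**
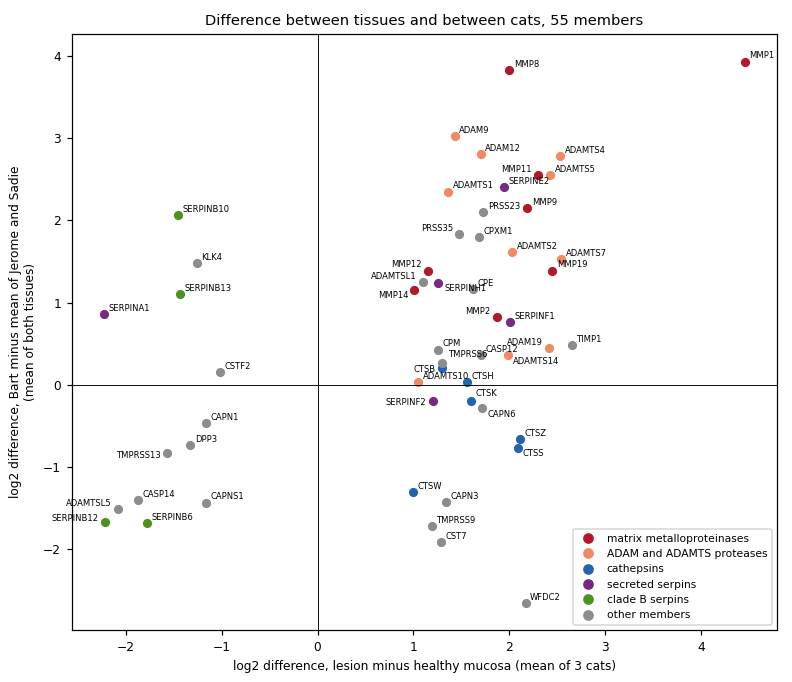
Members (55 of them) by their log2 difference of lesion and healthy mucosa (horizontal axis, mean of 3 cats) and by the log2 difference of Bart and the mean of Jerome and Sadie (vertical axis, mean of both tissues). Metalloproteinases, ADAM and ADAMTS proteases lie above 0 on the vertical axis, whereas CTSS, CTSZ, CTSW and CST7 lie below it, down to -1.91 for CST7.

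Markers of cell types moved with these members. Of 16 fibroblast markers, 8 had a symbol and none was listed at 0. Their sum was 3645 FPKM in the lesion of Bart against 776 and 894 FPKM in those of Jerome and Sadie, and 786 FPKM in its healthy mucosa against 377 and 356 FPKM. Of 11 cytotoxic lymphocyte markers, 6 had a symbol, and their sum was 110.5, 378 and 298 FPKM in lesions and 38.5, 102 and 126 FPKM in healthy mucosa. Bart was thus highest in the sum of fibroblast markers, as for SERPINE2, and lowest in the sum of lymphocyte markers, as for CTSW and CST7. The mean of Bart over both tissues was the lowest for 5 of the 6 lymphocyte markers. GZMB was lowest in Sadie, at 5.16, 28.6 and 0.38 FPKM in lesions and 1.45, 6.98 and 0.14 FPKM in healthy mucosa. GZMK in healthy mucosa was lowest in Jerome (6.91, 6.21 and 29.7 FPKM).

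The sum of 7 macrophage markers, of 11 in the list, was 976, 1613 and 1568 FPKM in lesions. In healthy mucosa it was 221, 501 and 356 FPKM, again lowest in Bart. The mean of Bart over both tissues was the lowest for 5 of the 7, and C1QB and C1QC held most of each sum. CD14 was lowest in Sadie, at 219, 205 and 108 FPKM in lesions and 64.1, 72.6 and 25.4 FPKM in healthy mucosa. MSR1 was highest in the lesion of Bart (8.30, 7.09 and 7.36 FPKM). One of them, LYZ, was listed at 0 in the healthy library of Bart. Of 15 neutrophil markers, 6 had a symbol and none was at 0, and CSF3R measured 291, 86.9 and 39.2 FPKM in lesions and 11.3, 11.8 and 0.276 FPKM in healthy mucosa. The whole neutrophil list did not follow this order, at 2096 to 16269 FPKM in lesions and 5732 to 41398 FPKM in healthy mucosa. The part of cell content in the differences between cats and tissues was not tested.

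**Figure D4:**
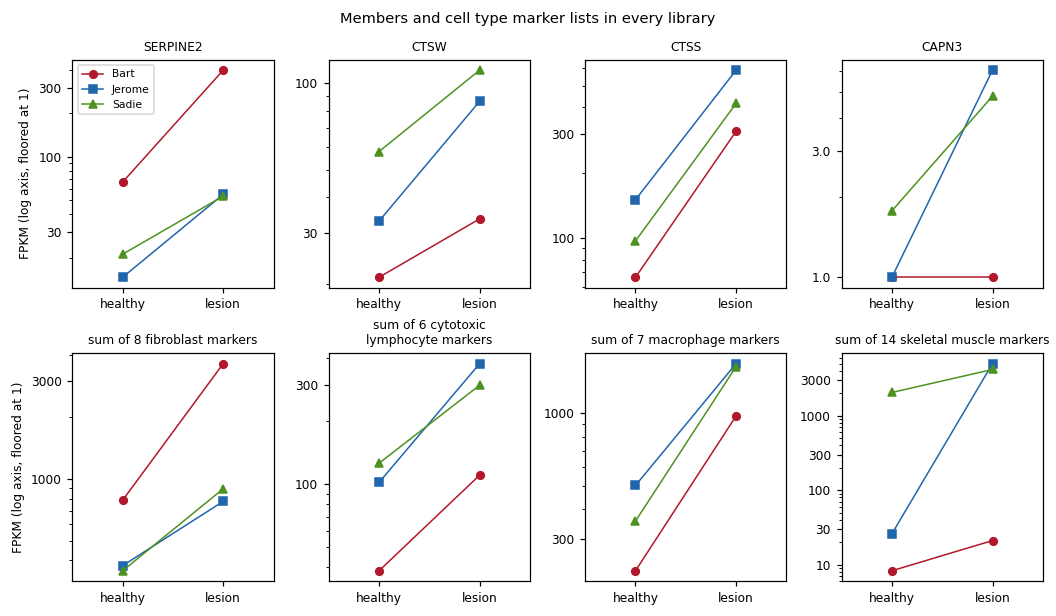
FPKM (vertical axis, log scale, values below 1 drawn at 1) of 4 members (top) and summed FPKM of a marker list (bottom) in healthy mucosa and lesion, with 1 line per cat. Bart (red circles) is highest for SERPINE2 and fibroblast markers and lowest for CTSW, CTSS and the lymphocyte and macrophage markers, and CAPN3 is above 1 FPKM only in the 3 libraries with 2060.5 FPKM or more of muscle markers.

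Proteases, inhibitors and protease receptors outside the symbol stems were taken from a list of 90 genes, 32 of which had a symbol. Of these, 27 were higher and 5 lower in lesions, and limma called 2 higher and 2 lower, against 11.9% of identifiers. With the cat as a block it called 18 higher and 3 lower, against 23.2%. They too carry a symbol because they differed at least 2-fold. LGMN, the lysosomal legumain that matures cathepsins, measured 160.4, 231 and 199.7 FPKM in lesions and 53.5, 73.6 and 71.1 FPKM in healthy mucosa. C1R, the serine protease that starts the classical complement cascade, measured 1489, 764 and 809 FPKM against 391, 303 and 188 FPKM. NAPSA, an aspartic protease of lung and kidney, measured 214, 49.4 and 39.0 FPKM against 9.63, 14 and 3.65 FPKM, and XPNPEP2, a membrane aminopeptidase, 24.2, 5.48 and 11.8 FPKM against 3.45, 2.33 and 1.91 FPKM.

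In the other direction, F2RL2, a receptor cut by thrombin, measured 18.3, 22.3 and 20.0 FPKM in lesions against 85.2, 66.7 and 151 FPKM. ECE2, a metalloprotease that makes endothelin, measured 1.05 to 1.25 FPKM against 1.96 to 3.42 FPKM. These 6 genes were picked for the smallest p between the tissues, so the separation of their lesion and healthy libraries follows from the choice.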

How the data were processed

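The authors deposited FPKM per gene for 6 libraries, 1 lesion and 1 healthy biopsy from each of 3 cats. Libraries were strand-specific and poly(A)-selected, and bcl2fastq, HISAT, Cufflinks and Cuffnorm are listed as tools in the submitters' processing notes. Tool versions, build and annotation were not given in the sources used here, so no coordinates are printed. Read totals per library are not in the files (the methods state a nominal depth only), and paralogs in gene clusters could share reads. FPKM was floored at 1 before log2, as in the study's supplementary table, which understates changes of low genes.

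Symbols came from 1981 entries of that table (328 others were not used here), each matching 1 identifier to 5 significant digits. Of these, 5 had turned into dates. The authors' fold changes were not used. A filter of 1 FPKM in 3 libraries left 13327 identifiers. They were fitted with limma 3.58.1 under R 4.3.3 (mean-variance trend, two-sided tests, Benjamini-Hochberg) by tissue alone and, for differences among cats, by an F test with tissue as covariate. The script was tested on simulated data. Alternatives were other scales, filters and scalings, the cat as a block, and leaving out libraries or cats. Tables and plots came from Python 3.11.15 with numpy 2.4.6, pandas 2.3.3 and matplotlib 3.10.9.

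The labels assign each lesion and healthy library to a cat, which pairs them. Deviations from the tissue means correlated within cats at 0.49 (Bart), 0.20 (Jerome) and 0.41 (Sadie), across genes, and between cats at -0.44 to 0.27, the highest being the lesion of Jerome with the healthy library of Sadie. With 3 animals, p-values measure the spread among these libraries. Members and lists were chosen with earlier results of these data known. Named with all values were up to 4 members per group with the largest differences, the 10 with the smallest p among cats and 6 genes with the smallest tissue p from the list of other proteases. MMP2, MMP8, MMP12, MMP14, CTSB, CPM, KLK4, TMPRSS9, PLAU, PLAUR, KRT4, TGM5, CSF3R and the values of ADAMTS10, ADAMTS14, SERPINF2 and SERPINH1 were added after values had been seen. Of the 57 members, 2 enter the counts and sums but are not reported here by name.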

Additional observations from a re-analysis of the deposited data

How the results depend on the processing

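The number of members past limma between the tissues (11) stayed at 9 to 12 with log2(FPKM + 1), with log2(FPKM + 0.1), without the filter, after median-centring, after quantile normalization and without the trend. These settings called 8.26% to 12.1% of tested identifiers. With the cat as a block the number of members was 34, against 23.2% of identifiers. Leaving out 1 library gave 0 to 13 and leaving out 1 cat gave 0 to 24, with 0 without either library of Sadie, without Jerome and without Sadie (18 to 28 at an unadjusted p under 0.05), 1 without the healthy library of Jerome, 4 without its lesion and 24 without Bart. Of all tested identifiers, 0.00750% to 10.8% were called on leaving out 1 library and 0.00% to 16.0% on leaving out 1 cat. Differences among cats stayed at 0 calls under every alternative, with 18 to 30 members at an unadjusted p under 0.05 except without Bart (4). Of the 57 members, 50 to 57 stayed at least 2-fold different in the same direction with log2(FPKM + 1), log2(FPKM + 0.1) and median-centring, 52 of 53 after quantile normalization and 45, 54 and 51 without Bart, Jerome and Sadie. No member changed direction. Lesion and healthy libraries did not overlap in 28 members, and in 52, 36 and 33 without Bart, Jerome and Sadie. Of all tested identifiers this held for 38.6%, and for 69.2% without Bart. The shares without Jerome and without Sadie were not computed, so nothing is read from those counts. No symbol exists for genes under 2-fold, and read totals per library are not in the files, so low values such as those of MMP12 carry no interval.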

Other observations

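Some members lie next to each other in the genome, by the order of protein-coding genes in the RefSeq table for cat (assembly F.catus_Fca126_mat1.0), in which 56 of the 57 symbols were found. SERPINF1 and SERPINF2, CTSS and CTSK, ADAMTS1 and ADAMTS5, and SERPINB12 and SERPINB13 are immediate neighbours. MMP8, MMP1 and MMP12 lie in a row with 2 genes between the first pair and 1 between the second. These 3 metalloproteinases had the same order of cats in each tissue, Bart before Jerome before Sadie. ADAMTS4, ADAM9 and PRSS23, which are not among these neighbours, had that order too. In healthy mucosa MMP12 lay below 1 FPKM in every cat, and MMP8 did so in Jerome and Sadie. SERPINB12 and SERPINB13 did not share an order in healthy mucosa: SERPINB12 measured 0.274, 15.2 and 6.69 FPKM in Bart, Jerome and Sadie, and SERPINB13 measured 7.57, 0.585 and 2.63 FPKM. CTSS was lowest in Bart in both tissues, whereas its neighbour CTSK was highest in Bart in lesions and lowest there in healthy mucosa. No test was made of neighbours against other pairs.

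Members also ranked differently by tissue within a library. TIMP1 led in all 3 lesions, whereas CTSB (Bart) or CAPNS1 (Jerome and Sadie) led in healthy mucosa. CTSB made up 43.0%, 30.1% and 29.6% of the summed FPKM of the 6 cathepsins in the lesions of Bart, Jerome and Sadie and 46.6%, 39.3% and 38.6% in healthy mucosa, a smaller share in the lesion of each cat.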
